A study of Rattus norvegicus with 16 samples.

Results

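The genes described here were abundant in the aorta and scarce in the kidney of adult rats. A gene was included when its CPM, its count divided by the library's total and multiplied by 1000000, averaged at least 20 over the 8 aortas and less than 1 over the 8 kidneys, and 63 of 23918 Ensembl gene identifiers met both thresholds. Of all identifiers, 6211 reached the aorta threshold and 10025 lay under the kidney threshold. The rule set aside 6 identifiers, 0 of which met both thresholds. Tissue levels chose the genes and the rule did not use exposure. The aorta mean covers both exposure groups, so a gene can reach 20 CPM through the group where it is higher. The levels in the 2 tissues are given as a description, and the exposure comparison within the aorta is the tested one.

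RNA-seq was done on polyA-selected RNA from the aortic arch with the thoracic aorta and from the kidney of wild type male Sprague-Dawley rats at 1 year of age. The room air (RA) group breathed room air throughout, and the hyperoxia group breathed 85% oxygen from postnatal day 1 to 14 and then recovered in room air. Each tissue had 4 RA and 4 hyperoxia libraries, with 1 animal per library according to the methods. A hyperoxia kidney was dropped by the study as an outlier; which one is not stated in the sources used here, and all 8 kidneys are kept here. Some library numbers (3) occur in both a hyperoxia aorta and a hyperoxia kidney, so the same animals may have supplied both tissues, which the labels do not say. Some exposed pups died before adulthood, so the hyperoxia libraries come from survivors. The aorta libraries held 33611558 to 47021630 counts in the RA group and 68643331 to 83929128 in the hyperoxia group, so every hyperoxia aorta was sequenced more deeply than every RA aorta, and the kidney libraries held 25031947 to 26521895.

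The aorta is an elastic artery. An endothelial lining faces the blood, layers of smooth muscle alternate with elastic sheets in the wall, and an outer coat of fibroblasts carries nerves and small vessels, with fat around it. The kidney is mostly epithelial tubule and also holds arteries and capillaries, so genes of vessel cells that both organs share fall outside the rule. In bulk tissue, fewer cells of a type and less RNA per cell cannot be told apart. The files give Ensembl identifiers without gene names, so the genes are given by identifier, their functions are not stated, and the labelled tissues were not checked against their marker genes.

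Mean levels of the 63 genes in the aorta ranged from 20.03 to 1589 CPM, with a median of 36.9 and quartiles of 26.03 and 64.0. CPM is not divided by gene length, so an order of genes by CPM is an order of read counts and not of transcripts. ENSRNOG00000045683 took the most counts, with a mean of 1589 CPM in the aorta. It alone held 24.1% to 27.6% of the counts of the 63 genes in the RA aortas and 28.5% to 30.7% in the hyperoxia aortas. All 63 genes together held 0.491%, 0.391%, 0.583% and 0.671% of the counts in RA aortas 1 to 4, and 0.569%, 0.747%, 0.616% and 0.546% in hyperoxia aortas 1 to 4. The 2 ranges overlapped. No gene was measured at low depth in the aorta, since the lowest count of any of the 63 in any aorta was 157.

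**Figure D1:**
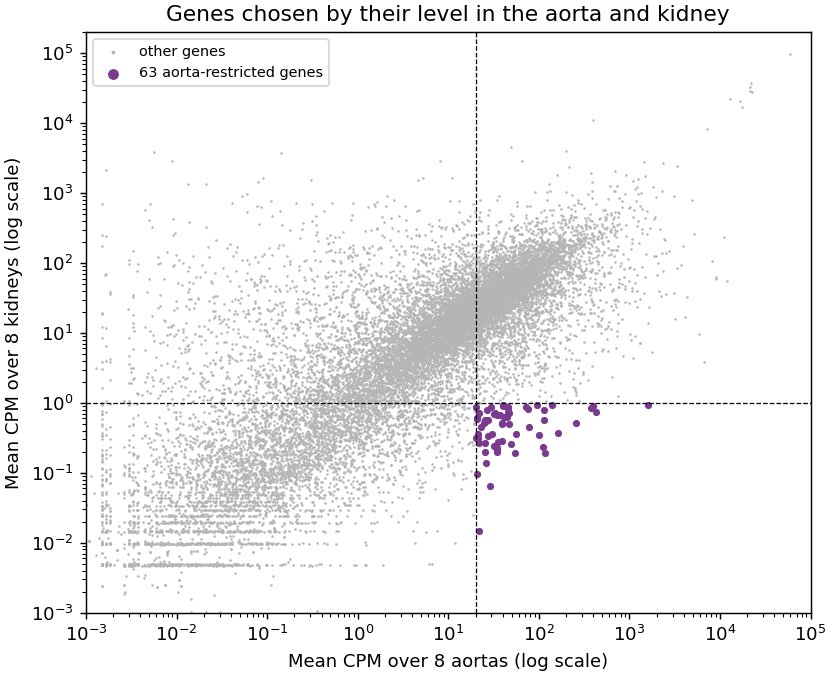
Mean CPM over the 8 aortas (horizontal, log scale) against mean CPM over the 8 kidneys (vertical, log scale) for each gene, with dashed lines at 20 and 1 CPM; genes under 0.001 CPM in either tissue are not drawn. The 63 aorta-restricted genes lie right of the 20 CPM line and under the 1 CPM line, and ENSRNOG00000045683 is the rightmost of them at 1589 CPM.

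Kidney means of the 63 genes ranged from 0.0146 to 0.946 CPM, with a median of 0.520. ENSRNOG00000026548 had the lowest kidney mean and 0 counts in 6 of the 8 kidneys. ENSRNOG00000045683 was listed at 0 in 6 kidneys, at 1.45 CPM (37 counts) in RA kidney 1 and at 6.02 CPM (151 counts) in hyperoxia kidney 4. Hyperoxia kidney 4 stood apart for many of these genes but not for all, and 2 of them had 0 counts in it. It gave the highest kidney value for 38 of the 63, and 0.00789% of its counts fell in them, against 0.00156% to 0.00337% in the other 7 kidneys. At least 1 kidney reached 1 CPM for 32 of the genes, and for 26 of these hyperoxia kidney 4 was the highest, while 14 reached 1 CPM in some other kidney. The highest single kidney value was 6.34 CPM, for ENSRNOG00000015267.

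Just inside the aorta threshold were ENSRNOG00000015957 at 20.03 CPM and ENSRNOG00000024580 at 20.2 CPM. Just outside it were ENSRNOG00000003059 at 19.5 CPM and ENSRNOG00000059373 at 19.5 CPM. At the kidney threshold, ENSRNOG00000059903 at 0.946 CPM and ENSRNOG00000053875 at 0.937 CPM were included, and ENSRNOG00000007475 at 1.000 CPM and ENSRNOG00000060879 at 1.01 CPM were not. When the kidney mean was taken without hyperoxia kidney 4, 77 genes met the rule.

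The effect of neonatal hyperoxia on these genes in the adult aorta was tested with edgeR's quasi-likelihood test on rounded counts, and levels below are CPM scaled between libraries by the trimmed mean of M-values (TMM). A gene was called at a false discovery rate (FDR) under 0.1, adjusted over all 15086 genes tested, with a log2 fold change beyond 0.32 in either direction, the thresholds that the study used. All 63 genes passed the filter on low counts. By edgeR, 0 of the 63 were induced, where 0.0133% of all genes tested were, and 0 were suppressed, where 0.00663% of all were. At an unadjusted p under 0.05, edgeR gave 4 genes higher and 4 lower in hyperoxia. Among all genes tested the shares were 3.33% higher and 5.91% lower, and among the 6211 genes at 20 CPM or more in the aorta 4.75% and 7.65%, beside 6.35% of the 63 in either direction. DESeq2, run as an alternative and the tool that the study's methods name, called 1 of the 63 induced (0.563% of all genes tested were called induced) and 1 suppressed (0.563% of all). With 1 aorta left out, DESeq2 called 11 of the 63 without RA aorta 4 (6.58% of all genes tested) and 5 without hyperoxia aorta 1 (4.03% of all). Without any other aorta it called 1 to 3 of the 63 (0.413% to 0.822% of all).

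The log2 fold changes of the 63 genes, hyperoxia over RA, ran from -1.76 to 2.20, with a median of 0.13 and quartiles of -0.21 and 0.33. The median was -0.02 over all genes tested and 0.02 over the genes at 20 CPM or more. Estimates were above 0 for 36 genes (57.1%) and below 0 for 27. Above 0 were 48% of all genes tested and 54% of genes at 20 CPM or more. The standard error (SE) was worked back from the edgeR test, as the absolute log2 fold change over the square root of its F statistic. The median standard error was 0.29, and it ranged from 0.13 to 0.70. Without RA aorta 2 the median of the 63 was 0.0024, and without RA aorta 4 it was 0.20. In 3 genes all hyperoxia aortas lay above all RA aortas, which is 4.76% of the 63 against 2.1% of all genes tested, and in 1 gene all lay below, which is 1.59% against 2.49%. ENSRNOG00000020805, 1 of the 3 and the top of the range, averaged 16.9 CPM in RA and reached 20 CPM through the hyperoxia aortas. With scaling by library totals alone the counts turned to 1 gene above (0.901% of all genes tested) and 3 genes below (2.74% of all).

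**Figure D2:**
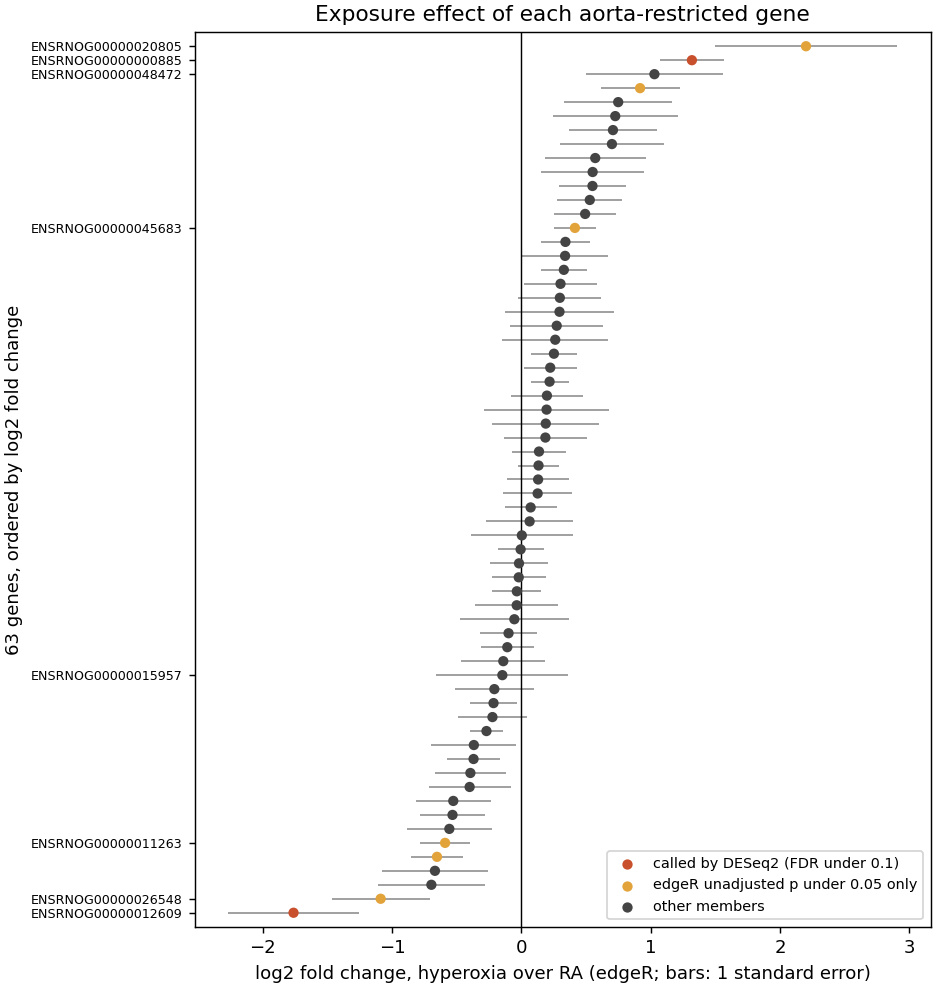
The log2 fold change of hyperoxia over RA in the aorta (horizontal) for each of the 63 genes (vertical, ordered by it), with 4 aortas per group. Bars are 1 standard error, worked back from the edgeR test. The points run from -1.76 to 2.20, and the 2 red points, ENSRNOG00000000885 and ENSRNOG00000012609, are those that DESeq2 called.

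ENSRNOG00000000885 rose in hyperoxia by DESeq2. Its levels in RA aortas 1 to 4 were 38.5, 25.04, 43.4 and 60.9 CPM, and in hyperoxia aortas 1 to 4 they were 91.9, 117.8, 119.6 and 89.1 CPM. The lowest hyperoxia aorta lay above the highest RA aorta. The means were 41.9 ± 14.8 CPM in the RA group and 104.6 ± 16.3 CPM in the hyperoxia group (SD, n = 4). The log2 fold change of ENSRNOG00000000885 was 1.32 (SE 0.25), with an edgeR FDR of 0.313 and a DESeq2 FDR of 0.00082. It was called by DESeq2 in each of the 8 fits that left out 1 aorta, with FDRs from 5.08e-08 to 0.0231, and by edgeR in 1 of them, without RA aorta 4 (FDR 0.0864). With all aortas thinned to the smallest total count, its log2 fold change was 1.29 by edgeR and its DESeq2 FDR was 0.000944. In a second alternative, voom with sample quality weights, its FDR was 0.0648.

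ENSRNOG00000020805 had the largest estimate of the 63 and did not pass the adjusted threshold. Its RA mean was 16.9 CPM, so the gene met the threshold of 20 CPM through the hyperoxia aortas, where it was higher. Its RA levels were 13.7, 5.44, 3.70 and 44.8 CPM, and its hyperoxia levels were 99.5, 96.2, 50.1 and 65.3 CPM. The groups did not overlap with TMM scaling, but RA aorta 4 lay close to the lowest hyperoxia aorta while the other 3 RA aortas lay well under it. With scaling by library totals alone, RA aorta 4 lay above hyperoxia aorta 3, so the groups overlapped. The means were 16.9 ± 19.1 CPM in the RA group and 77.8 ± 24.0 CPM in the hyperoxia group (SD, n = 4), and the log2 fold change was 2.20 (SE 0.70; edgeR FDR 0.510, DESeq2 FDR 0.199). Without RA aorta 4, ENSRNOG00000020805 had an edgeR log2 fold change of 3.35 (edgeR FDR 0.0976, DESeq2 FDR 7.09e-12), so that library decides its call. More of all genes tested were also called without RA aorta 4, 0.0968% by edgeR and 6.58% by DESeq2. When another aorta was left out, the shares were 0.0129% to 0.0399% by edgeR and 0.413% to 4.03% by DESeq2.

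ENSRNOG00000045683, the gene with the most counts, had levels of 1340, 1128, 1448 and 1464 CPM in RA aortas 1 to 4 and 1689, 1848, 1978 and 1651 CPM in hyperoxia aortas 1 to 4. The groups did not overlap with TMM scaling, and the spread within each was small beside the levels, with means of 1345 ± 155 and 1792 ± 151 CPM (SD, n = 4). With scaling by library totals alone, RA aorta 4 lay above hyperoxia aorta 1, so the groups overlapped. The log2 fold change of ENSRNOG00000045683 was 0.41 (SE 0.16), which did not pass either test after adjustment (edgeR FDR 0.518, DESeq2 FDR 0.135). It is the third of the 3 genes with no overlap on the higher side after TMM scaling.

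ENSRNOG00000053045 gave the other unadjusted p under 0.05 on the higher side (edgeR FDR 0.510). Its RA levels were 31.5, 12.9, 20.8 and 30.9 CPM, and its hyperoxia levels were 50.1, 58.5, 44.2 and 28.6 CPM. Hyperoxia aorta 4 lay among the RA aortas, and the other 3 lay above them all. ENSRNOG00000008865 was the next gene on that side, at 20.1 ± 6.24 CPM in the RA group and 29.5 ± 6.74 CPM in the hyperoxia group (SD; edgeR FDR 0.557).

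ENSRNOG00000012609 fell in hyperoxia by DESeq2. Its levels were 271.9, 323.1, 88.7 and 78.9 CPM in RA aortas 1 to 4 and 59.5, 76.9, 27.6 and 60.7 CPM in hyperoxia aortas 1 to 4. All hyperoxia aortas lay under all RA aortas, but RA aortas 3 and 4 lay close to hyperoxia aorta 2, and RA aortas 1 and 2 were far above the rest. The means were 190.7 ± 125.2 CPM in the RA group and 56.2 ± 20.6 CPM in the hyperoxia group (SD, n = 4). The log2 fold change of ENSRNOG00000012609 was -1.76 (SE 0.50) by edgeR with an FDR of 0.510, and -1.74 by DESeq2 with an FDR of 0.0333. DESeq2 called it in 5 of the 8 fits that left out 1 aorta, and not without RA aorta 1 (FDR 0.224), RA aorta 2 (FDR 0.241) or hyperoxia aorta 3 (FDR 0.165). On the thinned counts the DESeq2 FDR of ENSRNOG00000012609 was 0.0318, and voom did not call it, with a log2 fold change of -1.08 (FDR 0.314). Its deposited counts were not whole numbers in any of the 8 aortas. Gene counts that are not whole can come from reads divided between genes that share sequence, and how much of its level rests on such reads was not tested.

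ENSRNOG00000011263 had the most counts of the other genes with an unadjusted edgeR p under 0.05 on the lower side. It stood at 228.8, 249.8, 154.7 and 164.3 CPM in RA aortas and at 162.5, 124.2, 118.6 and 124.3 CPM in hyperoxia aortas. Hyperoxia aorta 1 lay between the lower RA aortas, and the other 3 lay under all of them. The log2 fold change of ENSRNOG00000011263 was -0.59 (SE 0.19; edgeR FDR 0.510).

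The remaining 2 genes on that side had fewer counts. ENSRNOG00000049629 stood at 41.3, 42.2, 35.3 and 27.1 CPM in RA and 21.5, 25.5, 29.1 and 16.7 CPM in hyperoxia, where 1 hyperoxia aorta lay above the lowest RA aorta (log2 fold change -0.65, SE 0.20, edgeR FDR 0.510). ENSRNOG00000026548, the gene nearest to 0 in the kidney, stood at 43.9, 19.0, 25.4 and 31.2 CPM in RA and 23.9, 15.5, 8.48 and 8.31 CPM in hyperoxia. Its hyperoxia aorta 1 lay above its RA aorta 2 (log2 fold change -1.09, SE 0.38, edgeR FDR 0.510). Its hyperoxia mean was 14.05 CPM, so the gene met the threshold of 20 CPM through the RA aortas. ENSRNOG00000031955 came next, at 31.9 ± 10.6 CPM in the RA group and 22.05 ± 2.52 CPM in the hyperoxia group (SD; edgeR FDR 0.555).

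**Figure D3:**
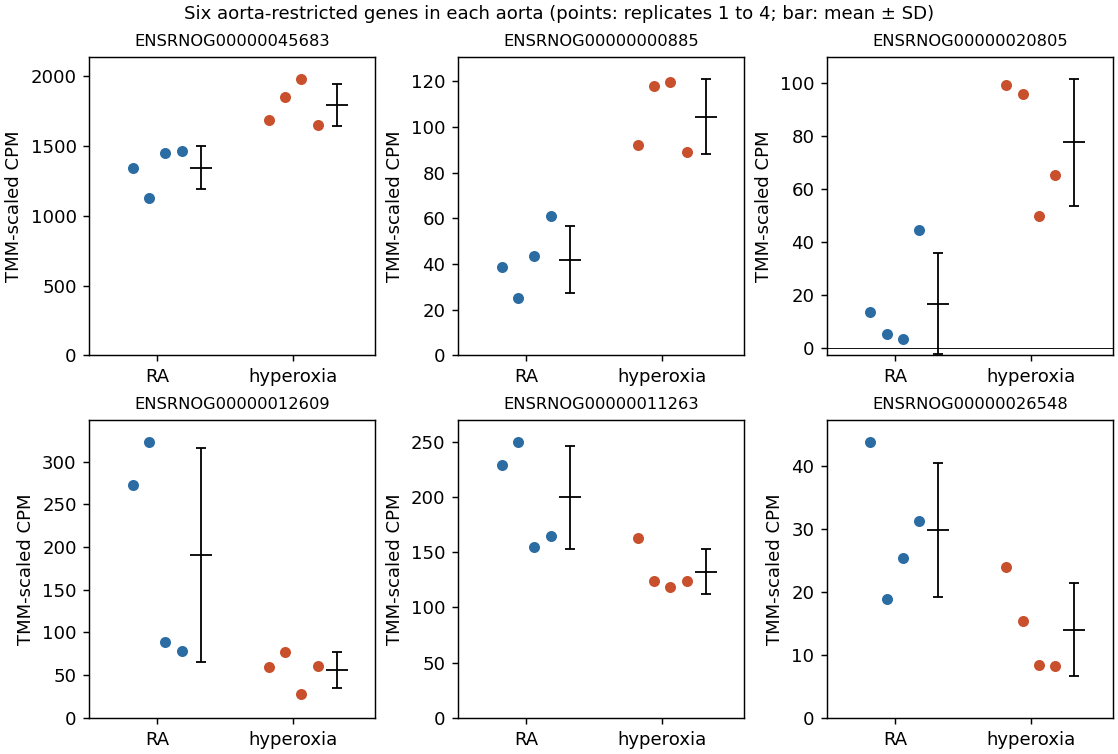
TMM-scaled CPM of 6 aorta-restricted genes in each aorta (points are replicates 1 to 4 of the RA and hyperoxia groups; the bar beside them is mean ± SD, n = 4; each panel has its own axis, which includes 0). In the upper row all hyperoxia points lie above all RA points on this scale. With library totals alone the groups overlap for ENSRNOG00000045683 and ENSRNOG00000020805. In the lower row the groups do not overlap for ENSRNOG00000012609 and overlap for ENSRNOG00000011263 and ENSRNOG00000026548.

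Among the 10 genes with the most counts in the aorta, the 7 not described above did not pass the test in either direction by edgeR or DESeq2. ENSRNOG00000016243 averaged 374.5 ± 83.3 CPM in the RA group against 470.0 ± 18.6 CPM in the hyperoxia group (SD, n = 4), a log2 fold change of 0.33 (SE 0.18; edgeR FDR 0.609). ENSRNOG00000020719 averaged 124.8 ± 14.7 CPM in the RA group against 103.5 ± 9.64 CPM in the hyperoxia group, a log2 fold change of -0.27 (SE 0.13; edgeR FDR 0.566). The other 5 had log2 fold changes between -0.04 and 0.30. They were ENSRNOG00000026951 (0.29, SE 0.42), ENSRNOG00000002167 (-0.04, SE 0.32), ENSRNOG00000010666 (0.27, SE 0.36), ENSRNOG00000005465 (0.30, SE 0.32) and ENSRNOG00000003669 (0.19, SE 0.32).

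Several of these abundant genes varied widely among the RA aortas. ENSRNOG00000026951 ran from 113.6 CPM in RA aorta 2 to 626.3 CPM in RA aorta 4, a 5.51-fold range, and from 314.3 to 511.7 CPM in hyperoxia, a 1.63-fold range. ENSRNOG00000010666 ran from 90.1 CPM in RA aorta 1 to 375.8 CPM in RA aorta 2, and from 245.7 to 349.8 CPM in hyperoxia. ENSRNOG00000005465 ran from 48.7 CPM in RA aorta 2 to 174.1 CPM in RA aorta 4, and from 129.2 to 159.3 CPM in hyperoxia. The low RA aorta was thus not the same library in all 3 genes.

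The spread among aortas of one group was described as the SD of log2 CPM with a prior count of 2. In the RA group its median was 0.51 over the 63 genes, 0.35 over all genes tested and 0.25 over the genes at 20 CPM or more. In the hyperoxia group the medians were 0.35, 0.25 and 0.18 in the same order. The SD was larger in RA than in hyperoxia for 37 of the 63 genes (58.7%), and for 68% of all genes tested and 66% of those at 20 CPM or more, so a wider RA group was the rule over the transcriptome too. The highest RA aorta exceeded the lowest by more than 2-fold for 33 of the 63 genes (52.4%), against 39% of all genes tested and 17.4% of genes at 20 CPM or more. In hyperoxia it did so for 22 genes (34.9%), against 24.5% and 8.55%. The count of 37 ranged from 28 without RA aorta 2 to 45 without hyperoxia aorta 4. With all aortas thinned to equal totals, the SD was larger in RA for 38 genes.

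**Figure D4:**
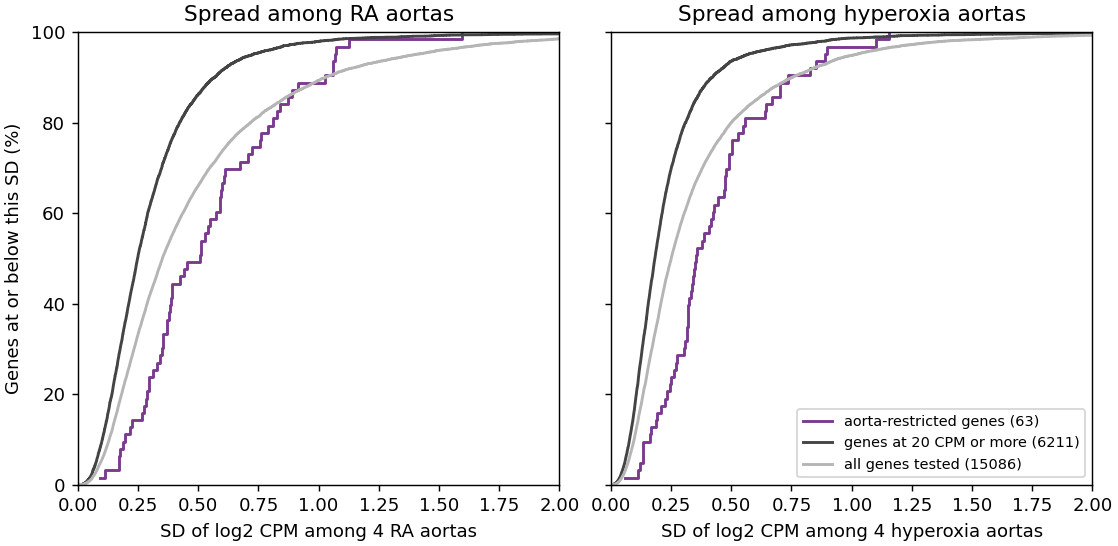
Cumulative share of genes (vertical, percent) at or below each SD of log2 CPM (horizontal, drawn up to 2) among the 4 RA aortas (left) and the 4 hyperoxia aortas (right), for the 63 genes, the 6211 genes at 20 CPM or more and all 15086 genes tested. The curve of the 63 genes lies to the right of the other curves at its middle, with medians of 0.51 in RA and 0.35 in hyperoxia.

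The libraries did not deviate alike over these genes. RA aorta 4 lay above its group's mean for 47 of the 63 genes and RA aorta 2 below it for 41. Hyperoxia aorta 4 lay below its group's mean for 45 and hyperoxia aorta 3 above it for 39. Over all genes tested each library lay above its group's mean for 47.2% to 53.4% of genes. TMM scaling centres each library over most genes, so a near-even split over all genes is largely set by the scaling. No such share is given for the genes at 20 CPM or more. A principal component analysis of the deviations of the 63 genes from their group means placed RA aorta 2 at -4.47 and RA aorta 4 at 4.21 on component 1, which held 36.5% of the variance, and the other 6 aortas between them. RA aorta 2 was the lowest of the 8 aortas for 21 of the 63 genes (33.3%), against 25.8% of all genes tested and 36.2% of genes at 20 CPM or more. Hyperoxia aorta 3 was the highest for 17 (27%), against 12.8% and 17.3%.

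**Figure D5:**
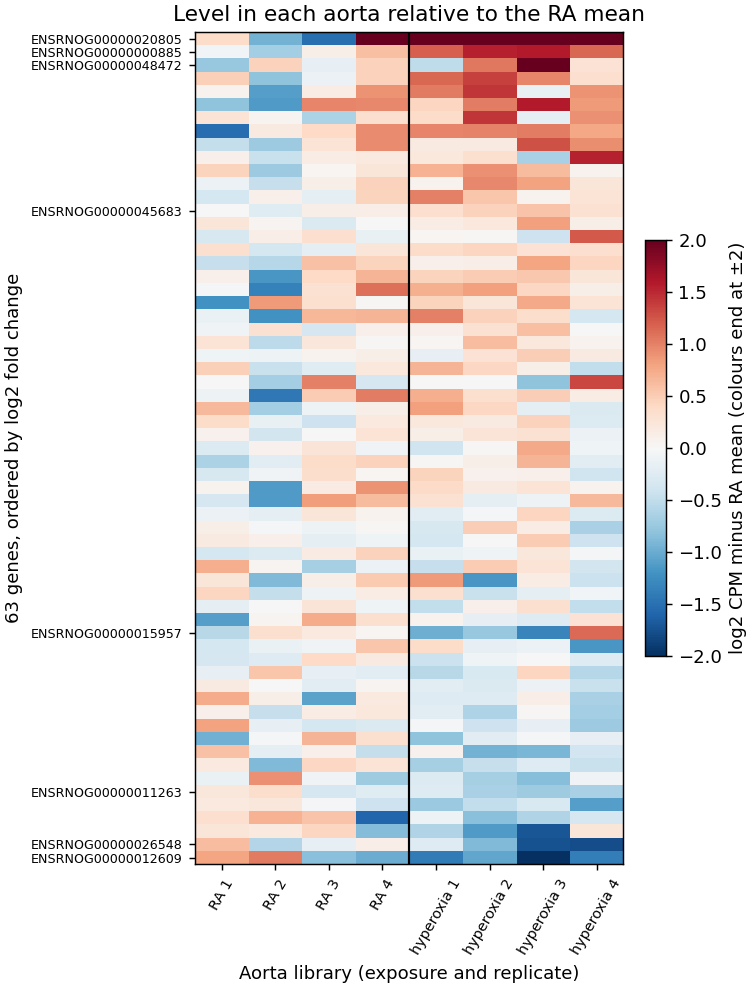
Level of each of the 63 genes (rows, ordered by log2 fold change) in each aorta (columns), as log2 CPM minus the mean of the 4 RA aortas, with colours ending at ±2. The column of RA aorta 2 is blue in many rows and that of RA aorta 4 red in many rows, as in the counts of 41 genes below and 47 above the RA mean.

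The genes with the widest spread within groups differed in which library stood out. ENSRNOG00000048472 stood at 20.2, 47.5, 30.6 and 47.3 CPM in RA and 24.2, 71.8, 159.0 and 41.9 CPM in hyperoxia, and its log2 fold change of 1.03 (SE 0.53; edgeR FDR 0.594) was 0.34 without hyperoxia aorta 3. ENSRNOG00000010617 stood at 18.3, 14.4, 62.8 and 61.6 CPM in RA and 42.9, 64.3, 95.0 and 57.6 CPM in hyperoxia, with the RA aortas in a low and a high pair. ENSRNOG00000015957 stood at 13.9, 25.6, 23.3 and 21.0 CPM in RA and 10.4, 12.02, 8.20 and 44.9 CPM in hyperoxia. For ENSRNOG00000015957, hyperoxia aorta 4 was the highest of all 8 aortas while the other 3 hyperoxia aortas were the lowest. The smallest SDs of log2 CPM pooled over both groups were those of ENSRNOG00000045683, ENSRNOG00000020719 and ENSRNOG00000004109, the last of which averaged 41.4 ± 3.23 CPM in the RA group and 48.2 ± 8.92 CPM in the hyperoxia group (SD, n = 4).

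Whole counts were as frequent among the 63 genes as elsewhere. For 32 of the 63 genes (50.8%) the deposited counts were exactly whole, with a tolerance of 0, in all 8 aortas, against 51.2% of all genes tested, and for 16 (25.4%) they were not whole in any, against 25%. ENSRNOG00000000885, ENSRNOG00000020805, ENSRNOG00000011263 and ENSRNOG00000026548 belonged to the former. ENSRNOG00000012609, ENSRNOG00000048472 and ENSRNOG00000015957 belonged to the latter.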

How the data were processed

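The authors assigned paired-end reads to rat transcripts (genome build rn6.0) with kallisto and summed them to genes with tximport. The deposited values are estimated counts (expected counts) per gene and library, without normalization or filtering. Tool versions and the annotation release are not given in the sources used here. Here the estimated counts were rounded. Totals were 25031947 to 83929128 counts per library. The precision of each value is limited by counting error and by 4 libraries per group.

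Groups were taken from the labels. The 63 genes and the gene lists were chosen with earlier results of these data known. Hyperoxia and RA aortas were compared over all genes with edgeR 4.0.16 in R 4.3.3 (TMM, filter on expression by group, quasi-likelihood test, Benjamini-Hochberg adjustment), with no covariates. The comparison was repeated with DESeq2 1.42.0, with limma 3.58.1 (voom, weighting samples by quality), with RLE, upper-quartile and library-total scaling, other filters, counts thinned to the smallest total, other membership thresholds, and without each library. DESeq2 on thinned counts and membership without single libraries were chosen after seeing the data. Scripts were tested on simulated data. No p-value was given over the 63 genes as a list.

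Genes named are those called by edgeR or DESeq2, the 5 with the smallest edgeR p in each direction, the 10 with the highest aorta CPM, the 5 with the largest and 3 with the smallest pooled SD, and the 2 on each side of each threshold. The gene with the highest single kidney value was named after its value was seen. None of the identifiers occurs in the gene name tables used here (0 of 63), so 11 lists of marker and pathway genes (435 symbols) were void, the rule to name members of each list gave none, and no sequences are printed.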

Additional observations from a re-analysis of the deposited data

Results flagged for a closer look

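For the named genes, 100 groups of 4 libraries were examined for a library far from the other 3, and 12 had one. Chance flags about 1 in 20 groups of independent values, but some of these genes were named for a wide spread, 7 of the 12 groups share a library, and several kidney values rest on few counts, so 12 cannot be read against that rate. In the aorta, 2 genes had such a library. ENSRNOG00000011263 stood at 162.5 CPM in hyperoxia aorta 1, with the others at 118.6 to 124.3 CPM. ENSRNOG00000015957 stood at 44.9 CPM in hyperoxia aorta 4, with the others at 8.20 to 12.02 CPM.

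Hyperoxia kidney 4 was the far library for 7 genes. They were ENSRNOG00000045683 at 6.02 CPM (0 in the other 3 hyperoxia kidneys), ENSRNOG00000003669 at 2.93 CPM (0.189 to 0.492), ENSRNOG00000031955 at 2.48 CPM (0.226 to 0.272), ENSRNOG00000005465 at 2.16 CPM (0.566 to 0.661), ENSRNOG00000015957 at 1.49 CPM (0.700 to 0.808), ENSRNOG00000053045 at 1.16 CPM (0.0754 to 0.189) and ENSRNOG00000024580 at 0.519 CPM (0.151 to 0.189). In the other kidneys, ENSRNOG00000045683 stood at 1.45 CPM in RA kidney 1 (0 in the other 3 RA kidneys), ENSRNOG00000048472 at 0.529 CPM in hyperoxia kidney 2 (0.117 to 0.151) and ENSRNOG00000012609 at 0.273 CPM in RA kidney 4 (0.233 to 0.235), which is 7 counts against 6 in each of the others. The source of these counts was not tested. Over all 63 genes, 2 RA and 4 hyperoxia groups of aortas, of 126, had a library far from the others, close to 1 in 20.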

How the results depend on the processing

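No paired analysis was possible because RA and hyperoxia libraries of a tissue share no numbers (3 numbers recur, between hyperoxia aortas and hyperoxia kidneys). DESeq2 called 1 gene induced and 1 suppressed, with all counts and with thinned counts, and voom called 1 induced (0.053% of all genes tested), with 12 higher and 8 lower at an unadjusted p under 0.05 (6.28% and 8.74% of all). Scaling by library totals alone left 1 gene higher and 3 lower without overlap between groups (0.901% and 2.74% of all). An aorta threshold of 10 CPM gave 126 genes (1 suppressed, 11 higher and 8 lower at an unadjusted p under 0.05), and one of 40 gave 27 (3 higher, 2 lower). A kidney threshold of 0.5 CPM gave 29 genes (2 higher, 3 lower), and one of 2 gave 120 (10 higher, 8 lower). Of all genes tested by edgeR, 3.33% were higher and 5.91% lower at that p, and 0.00663% were called suppressed. Among the 6211 genes at 20 CPM or more, 4.75% were higher and 7.65% lower. The counts at changed thresholds were not tested against these shares. Leaving out 1 library gave 59 to 77 genes by the rule, 0 to 2 induced and 0 suppressed by edgeR, 3 to 9 higher and 4 to 8 lower at an unadjusted p under 0.05, a median log2 fold change of 0.0024 to 0.20, and 28 to 45 genes with the larger SD in RA. The 2 induced, 9 higher and 8 lower came without RA aorta 4, where DESeq2 called 11 of the 63 and 6.58% of all genes tested. There edgeR called 0.0968% of all genes tested, against 0.0129% to 0.0399% without any other aorta. Without hyperoxia aorta 1 or 3, 7 were higher. The shares of all genes at an unadjusted p under 0.05 are not given for fits without 1 library, so those counts have no background. ENSRNOG00000002167 turned to a log2 fold change of 0.43 by voom and 0.062 by library totals, and ran from -0.23 to 0.26 when 1 aorta was left out. ENSRNOG00000003669 ran from -0.065 to 0.45 and ENSRNOG00000015957 from -1.03 to 0.10. The causes were not tested. The 24 genes named by rule among the 63 otherwise kept their direction under the alternatives run for them. Every count of these genes in the aorta was 157 or more, and the precision of each fold change rests on 4 libraries per group.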
